A study of Homo sapiens with 2 samples.

Results

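Among the 33538 genes counted in mock- and DAC-treated HCT116 cells, 58 genes that carry a clone name instead of a gene symbol had few UMIs in mock-treated and many more in DAC-treated cells. A clone name consists of AC, AL, or AP, 6 digits, a dot, and a number, and comes from the sequenced genomic clone in which the gene was annotated. Of the 9816 genes with such a name, the 58 were those of which no mock-treated cell had more than 2 UMIs, with 100 UMIs or more in the DAC-treated library, and at least 5 times as many UMIs in the DAC-treated as in the mock-treated library. A unique molecular identifier (UMI) marks 1 captured transcript molecule, so that its PCR copies are counted once. Under this rule, 1.04% of the 5565 clone-named genes with a UMI in either library were taken, against 2.64% of all 25429 genes with a UMI, 3.47% of 923 genes with LINC names, and 3.07% of 18941 genes with other names. The 58 genes were chosen by their UMIs in both libraries, so their difference between the libraries is a description and was not tested.

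HCT116, a line of human colon cancer cells, was grown in McCoy's 5A medium with fetal bovine serum. DAC (decitabine) was added at 0.5 μM on days 1 and 3, the medium was replaced on day 5, and cells were collected on day 7. The mock-treated cells went through the same medium changes without the drug. From each condition, 1 library of single cells was made by droplet capture of transcript 3′ ends, with 1783 mock-treated and 1751 DAC-treated cells. Differences between the cultures or the preparations of the libraries cannot be told apart from an effect of DAC with such a design.

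Most genes with clone names are long non-coding RNAs, transcripts that are spliced and polyadenylated like messenger RNAs but have no long open reading frame. Many of them start in or near retroviral long terminal repeats, which are copies of viral promoters left in the genome, and many run antisense to a protein-coding gene or away from its promoter. In differentiated cells, DNA methylation keeps many of these starts silent. DAC, once built into DNA, binds DNA methyltransferases irreversibly, and methylation is diluted as cells divide. DNA methylation at these genes was not analysed here.

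The mock-treated library held 49911689 UMIs, with a median of 27899 per cell, and the DAC-treated library held 59046165 UMIs, with a median of 35340. The difference in depth was thus 1.18-fold in total UMIs. Markers of epithelial cells summed to 5021 and 7979 CPM (UMIs relative to the library total) in mock- and DAC-treated cells, and none of the 6 was at 0. The higher sum came mainly from *KRT18* (2030 and 4280 CPM) and *KRT8* (1094 and 1895 CPM), while *EPCAM* (349 and 222 CPM) and *CLDN4* (86.9 and 27.3 CPM) were lower in DAC-treated cells. The sums of 5 leukocyte, 5 fibroblast, and 4 endothelial markers were between 0.220 and 19.7 CPM in both libraries. Both libraries shared 12 cell barcodes.

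Of the 58 genes, 56 were placed on hg38 by their Ensembl identifiers in GENCODE release 44, and the remaining 2, *AC136616.1* and *AC117402.1*, were only counted. The start windows, from 250 bases before to 50 after an annotated start, are shown first for 2 genes, because they mark how far the genes differ in CpG, the pair of bases at which DNA is methylated. *AC005291.1* (chr17:10320142-10320441, plus strand) has 1 CpG, the fewest among the 10 most abundant genes. *AC012645.1* (chr16:30096180-30096479, plus strand) has 42, the most of the 56 windows. CpG is in capitals, and both are written 5′ to 3′ on the transcribed strand of hg38.
AC005291.1: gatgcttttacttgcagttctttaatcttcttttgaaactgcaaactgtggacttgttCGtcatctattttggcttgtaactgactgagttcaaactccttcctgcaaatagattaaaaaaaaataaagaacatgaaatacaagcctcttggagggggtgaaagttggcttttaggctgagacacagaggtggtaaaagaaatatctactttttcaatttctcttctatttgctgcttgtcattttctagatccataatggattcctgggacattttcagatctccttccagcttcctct
AC012645.1: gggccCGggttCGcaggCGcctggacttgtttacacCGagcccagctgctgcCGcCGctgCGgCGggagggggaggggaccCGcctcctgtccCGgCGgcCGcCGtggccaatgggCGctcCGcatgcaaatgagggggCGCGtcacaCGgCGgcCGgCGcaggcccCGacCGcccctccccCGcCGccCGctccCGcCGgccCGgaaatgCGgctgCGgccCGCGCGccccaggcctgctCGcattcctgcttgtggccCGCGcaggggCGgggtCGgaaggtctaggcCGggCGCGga

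Over 300 bases, the windows of the 56 genes had a median of 7.5 CpG, with a range from 0 to 42. All clone-named genes had a median of 4, and the 5342 other clone-named genes with a UMI had a median of 6. The 32 LINC-named genes that met the thresholds had a median of 6.5, and all listed genes had a median of 10. The 582 other named genes that met the thresholds, of which 581 had a window, had a median of 14. A GC content of 50% or more with a ratio of observed to expected CpG of 0.6 or more was found in 12 of the 56 windows (21.4%), in 19.5% of all clone-named genes, in 26.5% of the other clone-named genes with a UMI, and in 15.6% of the 32 LINC-named genes that met the thresholds. It was found in 40.5% of all genes and in 45.3% of the 581 genes. The letters CCAAT, on either strand, were present in 30 of the 56 windows (53.6%), against 35.4% of all genes and 34.4% of all clone-named genes, and in 16 of 32 windows of LINC-named genes that met the thresholds. The letters TATAAA were present in 9 windows (16.1%, against 12.8% of all genes and 16.1% of all clone-named genes). The letters GGGCGG were present in 19 windows (33.9%), against 39.7% of all genes and 21.7% of all clone-named genes. Among the other clone-named genes with a UMI the share was 27.9%. TGACGTCA was present in none, against 1.68% of all genes. A match describes the letters in a window and not the binding of a factor.

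Summed over the 58 genes, the mock-treated library held 434 UMIs (95% Poisson interval 394 to 477) and the DAC-treated library 14119 (13887 to 14354). This was 8.70 and 239 CPM, a ratio of 27.5 (95% interval 24.99 to 30.3, counting error only). Of the 58 genes, 21 had no UMI in mock-treated cells, 15 had 1 to 5, 9 had 6 to 12, and 13 had more than 12, with at most 35. In DAC-treated cells, 38 genes had fewer than 200 UMIs, 16 had 200 or more and fewer than 500, and 4 had 500 or more. The 5 most abundant genes held 30.8% of the UMIs of the set and the 10 most abundant held 44.4%, so that most of the 58 were rare transcripts even after DAC.

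**Figure D1:**
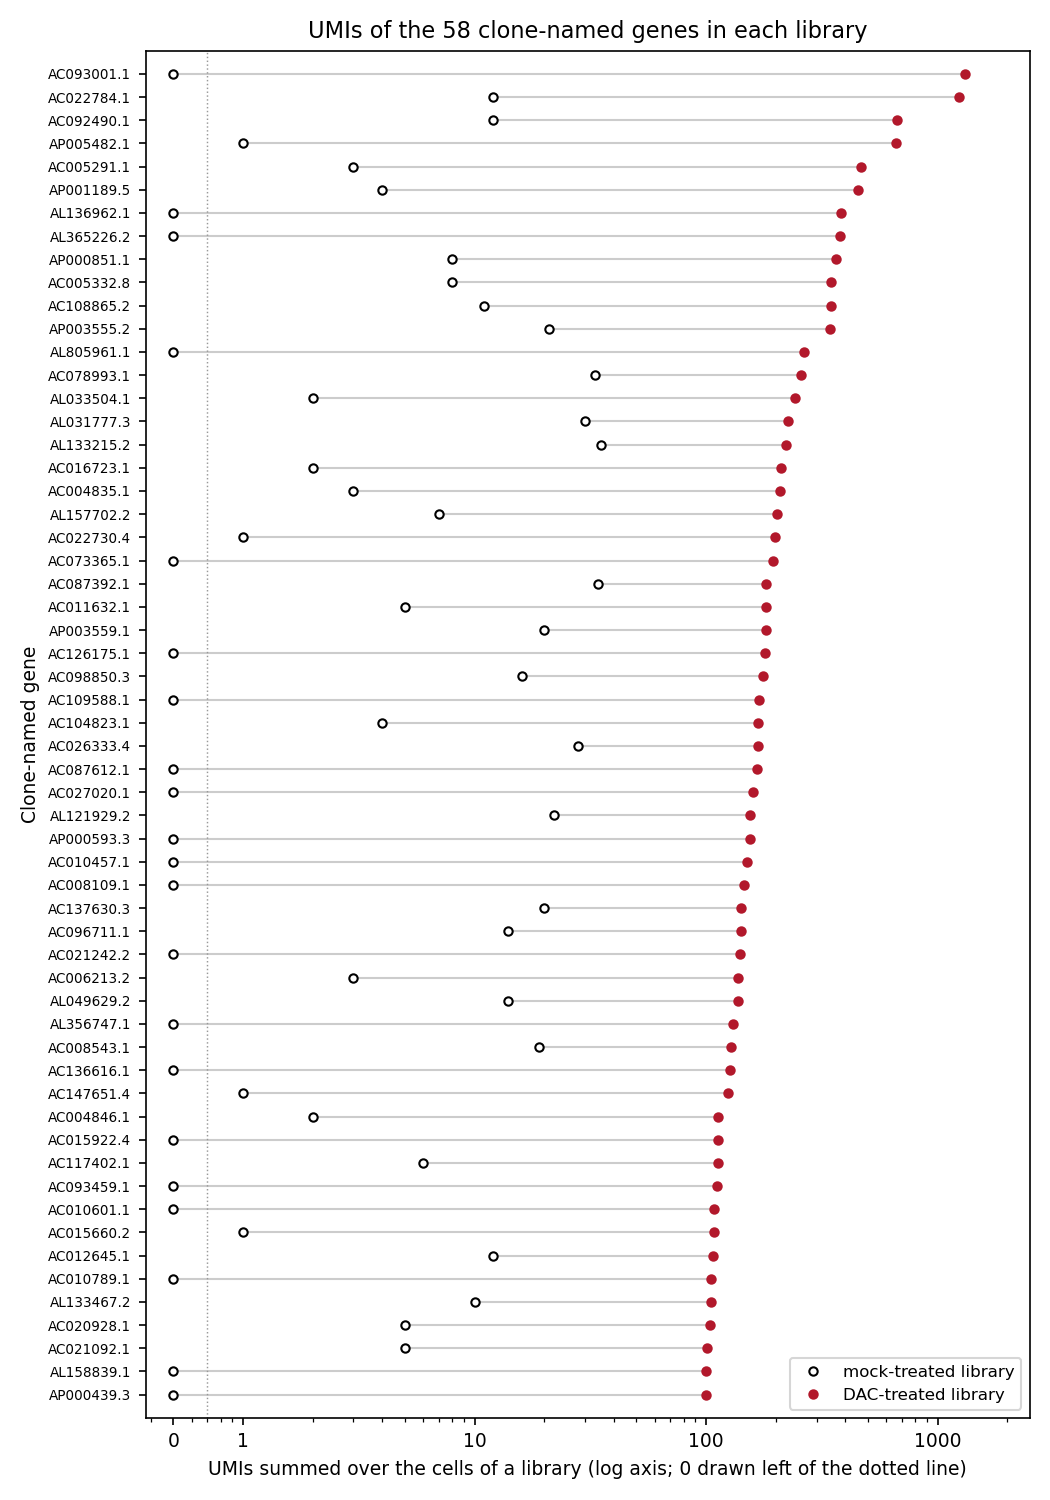
UMIs of each of the 58 clone-named genes (rows) summed over the mock-treated (open circles) and DAC-treated (filled circles) library, on a log axis with 0 drawn to the left of the dotted line. All filled circles lie at 100 UMIs or more, and 21 open circles lie at 0.

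With the thresholds exchanged, so that mock-treated cells took the place of DAC-treated cells, 5 clone-named genes were found (0.0898% of 5565, against 0.0904% of all genes with a UMI), for example *AC058791.1* with 402 UMIs against 75 in the DAC-treated library. Of the 633 clone-named genes with 100 UMIs or more over both libraries, 323 were higher in DAC-treated cells, and the median log2 CPM ratio was 0.03. Of all 13547 genes with as many UMIs, 8549 (63.1%) were higher, with a median of 0.24. Among the 177 clone-named genes that met the limits of 100 UMIs and of 2 per mock-treated cell, the limit of 5 times took 58 (32.8%), against 41.5% of the 1618 genes of any name.

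At the limit of 5 times, the last genes inside were *AC087392.1* with 34 and 182 UMIs in mock- and DAC-treated cells, *AC026333.4* with 28 and 167, and *AL133215.2* with 35 and 221. Just outside were *AC090502.1* with 114 and 548 UMIs, *AL645933.2* with 26 and 123, and *AC008736.1* with 52 and 234. At the limit of 100 UMIs, *AL158839.1* and *AP000439.3* had 100 UMIs each and *AC021092.1* had 101. Outside it were *AC097512.1* with 96, *AC025171.5* with 95, and *AL022068.1* with 94. The limits thus cut through a continuous range of values.

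*AC093001.1* was the most abundant of the 58 genes. It is named *TM4SF18-AS1* in GENCODE release 44 and lies on chromosome 3 from 149284782 to 149333653, across exons of *TM4SF18*, a tetraspanin-like membrane protein gene on the opposite strand. It had 0 UMIs in the mock-treated library and 1314 in the DAC-treated library. In CPM this was at least 370.2-fold higher after DAC with 3 UMIs put in place of the 0. The 95% Poisson interval of a count of 0 reaches 3.69 UMIs, at which the fold would be lower. The 1314 UMIs came from 224 cells (12.8%, 95% Clopper-Pearson interval 11.3 to 14.4%), and 1 cell alone had 107. *TM4SF18* itself had 46 UMIs in mock-treated and 569 in DAC-treated cells, a CPM ratio of 10.5. The sources used here do not say whether reads were counted by strand, and for overlapping genes without strand the reads cannot be told apart.

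*AC022784.1* was the most widely detected. It is now named *PPP1R3B-DT*, runs on chromosome 8 from 9151695 to 9425524, and starts 121 bases from *PPP1R3B*, which codes for a subunit of protein phosphatase that directs it to glycogen and is transcribed the other way. *AC022784.1* had 12 UMIs in the mock-treated library, each in another cell, and 1235 in 606 DAC-treated cells (34.6%, 32.4 to 36.9%), a CPM ratio of 87.0 (95% interval 49.6 to 169). *PPP1R3B* had 356 and 348 UMIs, a CPM ratio of 0.826. The protein-coding gene thus had nearly the same number of UMIs in both libraries, although its start lies 121 bases from that of *AC022784.1*. *AC022784.1* was also far less uneven between cells than *AC093001.1*, with at most 11 UMIs in a cell.

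*AC092490.1* (*LINC02972*, chromosome 12) had 12 UMIs over 11 cells of the mock-treated library and 670 in 331 DAC-treated cells (18.9%), a CPM ratio of 47.2 (26.8 to 91.8). *AP005482.1* (*LINC01882*, chromosome 18) had 1 UMI in the mock-treated library and 660 in 233 DAC-treated cells (13.3%), a CPM ratio of 558 with an interval from 99.8 to 22069. The log2 ratio of *AP005482.1*, 9.12, was 7.38 without cells under 10000 UMIs or over 50% mitochondrial UMIs. It was 7.22 as the ratio of mean CPM over cells and 5.58 with cells thinned to 10000 UMIs, so that its size is uncertain. Where a setting leaves out the 1 UMI of the mock-treated library, 3 is put in place of the 0. *AC126175.1*, a gene with a single exon on chromosome 12, had 0 UMIs in the mock-treated library and 179 in 77 DAC-treated cells. *AL356747.1* on chromosome 6 had 0 UMIs in the mock-treated library and 131 in 46 DAC-treated cells. These 46 cells (2.63%) were the smallest share among the 58 genes.

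The other genes among the 10 most abundant had fewer than 500 UMIs. *AC005291.1*, whose start window is shown above, is antisense to the myosin heavy chain gene *MYH13* on chromosome 17. It had 3 UMIs in the mock-treated library and 465 in 328 DAC-treated cells (18.7%). *AP001189.5* (*LINC02757*, chromosome 11) had 4 UMIs in the mock-treated library and 453 in 111 DAC-treated cells (6.34%). The 3′ end of *AP001189.5* matched *MAPK10* at 96.0% identity over 227 bases and *LINC02484* at 95.3% over 233, so reads could be split between them, and its count is uncertain.

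*AL136962.1* (*LINC00540*, chromosome 13) and *AL365226.2* (*LINC01610*, chromosome 6) had 0 UMIs in mock-treated cells. In DAC-treated cells *AL136962.1* had 384 UMIs in 269 cells, and *AL365226.2* had 378 UMIs in 173 cells. With 3 UMIs put in place of the 0, these were at least 108-fold and 107-fold higher. The UMIs of *AL365226.2* were thus held by fewer cells. *AP000851.1* (*MMP20-AS1*, chromosome 11), antisense to a matrix metalloproteinase gene of tooth enamel, had 8 UMIs in the mock-treated library and 365 in 203 DAC-treated cells. *MMP20* itself had 3 and 31 UMIs. *AC005332.8*, a gene with 1 exon of 619 bases on chromosome 17, had 8 UMIs in the mock-treated library and 348 in 229 DAC-treated cells.

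The genes differed both in the share of cells and in the UMIs per positive cell. The share of DAC-treated cells with 1 UMI or more had a median of 7.02% over the 58 genes, with quartiles of 5.33 and 9.17%, while over the mock-treated cells it was 0.168% at the median gene and at most 1.91%. A positive cell had a mean of 1.30 UMIs of a gene as the median over the 58 genes, with quartiles of 1.22 and 1.52. For the median gene, 79.3% of the positive cells had a single UMI. Only 3 of the 58 genes had no cell with 3 UMIs or more. Free RNA in droplets was not estimated, since the library holds 1 cell line, and a single UMI does not show that the cell itself made the transcript.

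The 5 genes with the most UMIs per positive cell were *AC093001.1* with 5.87, *AP001189.5* with 4.08, *AL356747.1* with 2.85, *AP005482.1* with 2.83, and *AC004835.1*, an intergenic gene on the X chromosome, with 2.55. In all, 10 of the 58 genes had more than 2 UMIs per positive cell.

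The 5 genes with the fewest UMIs per positive cell were *AC010789.1* with 1.03, *AL133467.2* with 1.05, *AC015922.4* with 1.09, *AC004846.1* with 1.10, and *AC098850.3* with 1.11. *AC010789.1* had 105 UMIs in DAC-treated cells and at most 2 in a cell. Its number of UMIs was close to that of *AL356747.1* with 131, which had up to 38 in a cell. The 3′ end of *AC098850.3*, annotated as protein-coding, matched *USP32* at 97.6% identity over 206 bases and *USP6* at 96.0% over 301, and its exons overlap *CCDC144A* on the same strand, so its count is uncertain.

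**Figure D2:**
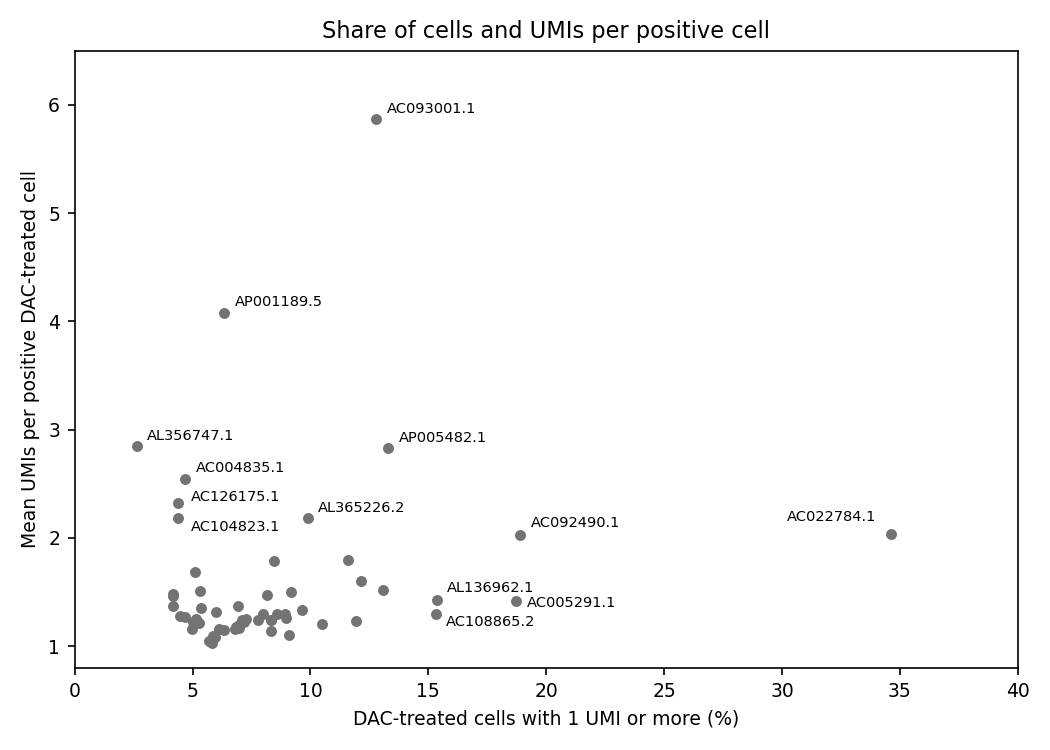
Share of DAC-treated cells with 1 UMI or more (x axis, %) and mean UMIs per positive cell (y axis) of the 58 clone-named genes (points). Most genes lie between 1 and 2 UMIs in fewer than 15% of the cells, *AC022784.1* stands apart by its share of 34.6%, and *AC093001.1* by its 5.87 UMIs per positive cell.

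The number of cells without a UMI was set against the number expected if a gene made up an equal share of the UMIs of every cell. The ratio of observed to expected cells had a median of 1.02 and was above 1 for 57 of the 58 genes. The 582 genes of other names that met the thresholds were all above 1, with a median of 1.03, and the 32 LINC-named genes were too, with a median of 1.04. It was highest for *AC093001.1* at 1.60, where 1527 cells had no UMI against 956 expected. The next were 1.22 for *AP005482.1*, 1.19 for *AP001189.5*, 1.16 for *AC022784.1*, and 1.14 for *AC092490.1*. For *AC093001.1* the positive cells were thus 0.282 of the number that an even share would give. The lowest ratios were 0.999 for *AC010789.1* and 1.00 for *AL133467.2*, *AC015922.4*, *AC004846.1*, and *AC098850.3*, and at these counts detection in scattered cells cannot be told apart from an even low share in all cells.

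Genes of other names that met the same thresholds were set beside the clone-named genes at equal abundance, and the medians were close below 500 UMIs. Between 100 and 200 UMIs, the median share of cells was 5.97% for the 38 clone-named genes and 5.83% for 253 genes of other names, and the median UMIs per positive cell were 1.24 and 1.24. Between 200 and 500 UMIs, the median shares were 10.2 and 11.5%, and the median UMIs per positive cell were 1.49 and 1.49. Between 500 and 2000 UMIs, the median shares were 16.1% for 4 clone-named genes and 21.6% for 115 genes of other names. The 4 clone-named genes had a median of 2.44 UMIs per positive cell, against 2.27 for the 115. Their 10 highest cells held a median of 22.5% of the UMIs, against 11.9%.

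At least 1 UMI of the 58 genes was present in 1417 of 1751 DAC-treated cells (80.9%, 95% interval 79.0 to 82.7%) and in 352 of 1783 mock-treated cells (19.7%, 17.9 to 21.7%). The median DAC-treated cell had 4 of the 58 genes (quartiles 1 and 7) and the highest had 27. The median mock-treated cell had 0 and the highest had 5. The number followed the depth of the cell. With the DAC-treated cells in 3 groups of nearly equal size by total UMIs, the median was 0 genes in the group with the fewest UMIs, up to 17257 per cell, 5 in the next, and 8 in the deepest. The summed level did not follow depth in the same way, with 257, 218, and 249 CPM in the same groups. Among the 1120 DAC-treated cells with 10000 UMIs or more and 50% mitochondrial UMIs or less, only 16 had no UMI of the 58 genes.

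**Figure D3:**
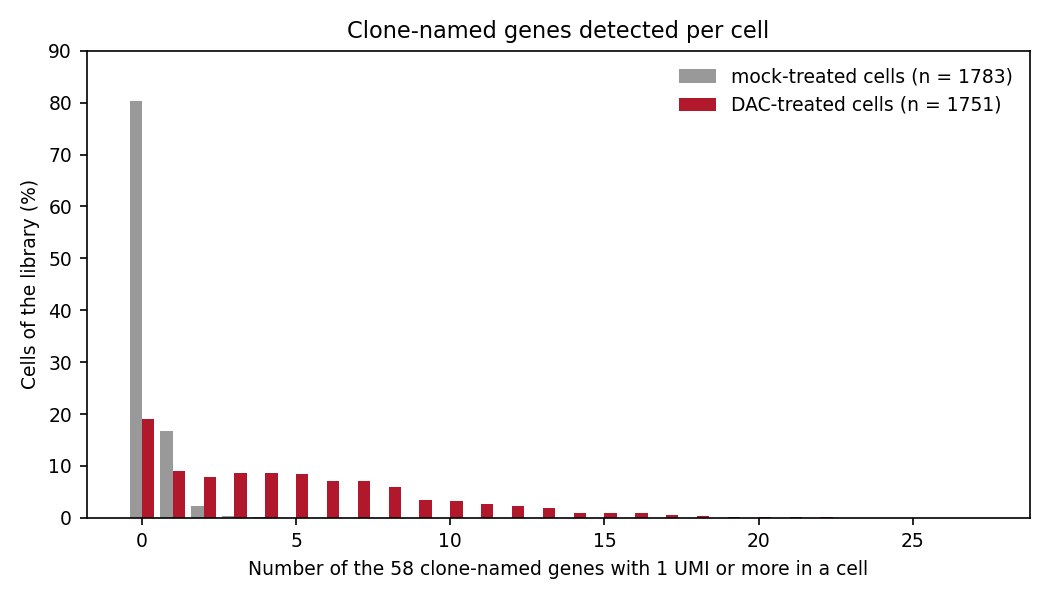
Share of the cells of each library (y axis, %) by the number of the 58 clone-named genes with 1 UMI or more in the cell (x axis). Mock-treated cells (grey) lie mostly at 0 and reach 5, and DAC-treated cells (red) spread from 0 to 27.

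A few cells had far more of these transcripts than the rest. The 10 DAC-treated cells with the most held 1371 UMIs, 9.71% of all UMIs of the 58 genes. The highest cell had 246 UMIs from 24 of the genes, of which 107 were *AC093001.1*, 38 *AL356747.1*, and 25 *AC004835.1*. The second had 225 UMIs from 27 genes, led by *AP001189.5* with 95. *AC093001.1* led 5 of these 10 cells, *AP001189.5* and *AP005482.1* led 2 each, and *AL365226.2* led the remaining one. The mitochondrial share of the UMIs of these cells was between 5.72 and 30.0%, and their total was between 24349 and 88666 UMIs.

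Co-detection was measured in the 1120 DAC-treated cells named above. For each pair of genes, the number of cells with both was divided by the number expected if the genes were detected independently within 10 groups of cells of similar depth. Of 1653 pairs, 1560 had 5 expected cells or more. Their median ratio was 1.12, with quartiles of 0.966 and 1.33, and it was above 1 for 69.6% of the pairs. The 95% Poisson interval of the observed number lay above the expected one for 118 of these 1560 pairs and below it for 5. The number of the 58 genes per cell had a variance of 17.3, which was 1.66 times that expected from independent detection at these depths. Neither the count of intervals nor the variance was obtained for other genes that met the thresholds. Pairs of the 614 other genes that met the thresholds had a median ratio of 1.07, with 67.4% above 1, and pairs of a clone-named with another such gene had a median of 1.08, with 66.5% above 1. The pairs share genes and cells, so that they are not independent.

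The highest ratio was that of *AP001189.5* and *AC004835.1*, which were found together in 25 cells against 5.52 expected, a ratio of 4.53 (95% interval 2.93 to 6.69). *AP001189.5* was also found with *AC126175.1* in 19 cells against 5.33, a ratio of 3.56. *AP005482.1* and *AL356747.1* were found together in 20 cells against 5.75, a ratio of 3.48 (2.12 to 5.37). *AP001189.5* thus took part in the 2 highest ratios.

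The next pairs were *AP001189.5* with *AC015660.2* at 3.17, *AC087612.1* with *AC015660.2* at 2.95, and *AC093001.1* with *AC004835.1* at 2.60. These were followed by *AP005482.1* with *AP001189.5* at 2.40, *AC015660.2* with *AC020928.1* at 2.35, *AC015660.2* with *AL133467.2* at 2.34, and *AL365226.2* with *AC004835.1* at 2.33. The genes of each of these pairs lie on different chromosomes, except *AC087612.1* and *AC015660.2*, which lie far apart on chromosome 15. *AC022784.1*, in contrast, had ratios from 0.933 to 1.14 with the other 19 most abundant genes, as the plot of co-detection shows. The lowest ratio was that of *AC136616.1* and *AC010789.1*, found together in 1 cell against 5.37 expected, with an interval of the ratio from 0.00472 to 1.04.

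**Figure D4:**
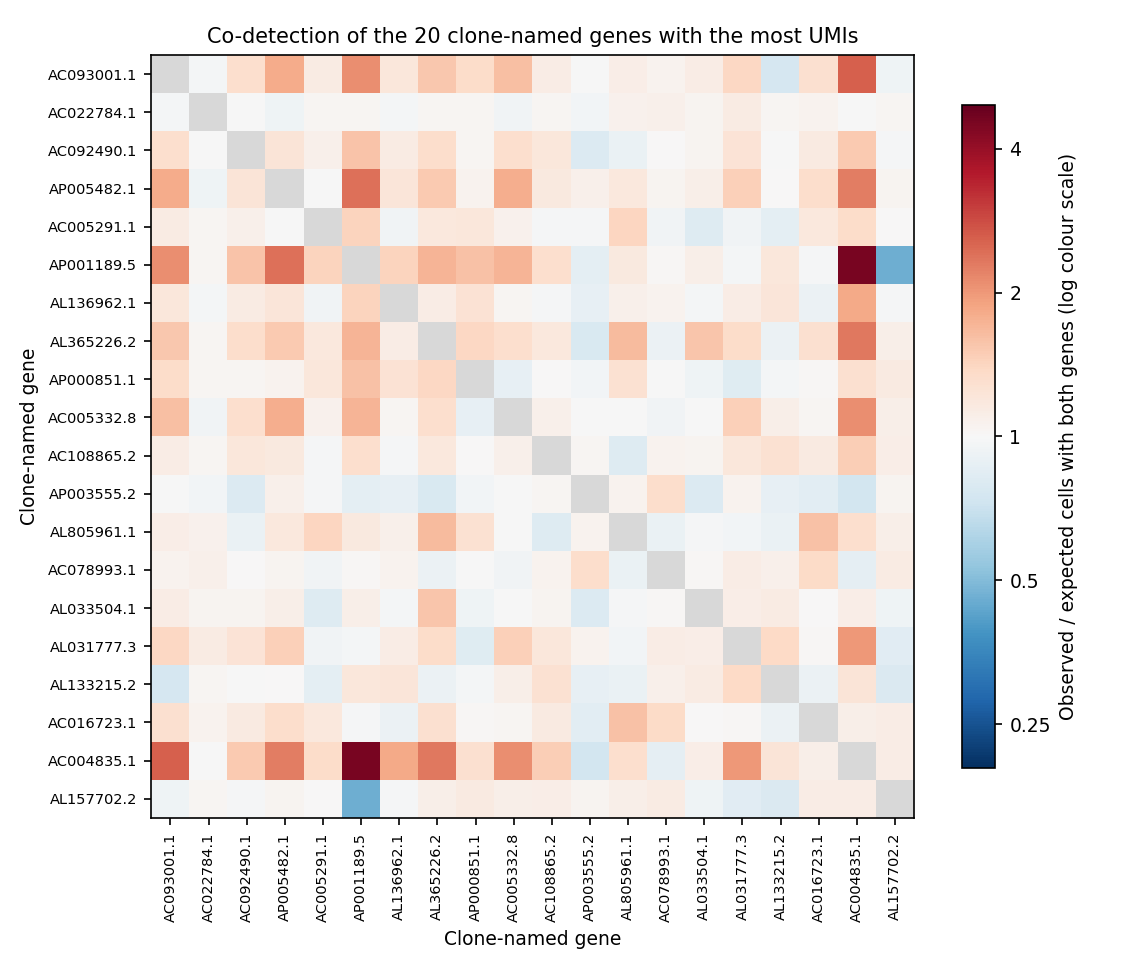
Ratio of observed to expected DAC-treated cells with both genes, on a log colour scale, for pairs of the 20 clone-named genes with the most UMIs (rows and columns, in the same order; the diagonal is grey). Rows of *AC093001.1*, *AP005482.1*, *AP001189.5*, *AL365226.2*, and *AC004835.1* are red where they cross, with 4.53 for *AP001189.5* and *AC004835.1*, and the row of *AC022784.1* is pale.

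The UMIs in each cell were also compared, by Pearson's r of the residuals of counts against an even share of each cell's UMIs across the 1120 cells. The cells share 1 library and differ in depth, and r is given as a description. For each of the 10 most abundant genes, the gene with the highest correlation was sought among 13544 genes present in 50 cells or more. For *AC093001.1* it was *AKR1B15*, an aldo-keto reductase gene on chromosome 7, with r = 0.52 and 69 cells with both. *AKR1B15* had 2 UMIs in mock-treated and 814 in DAC-treated cells. For *AP005482.1* it was *AP001189.5* with r = 0.54, and for *AP001189.5* it was *AC004835.1* with r = 0.57. For *AC092490.1* it was *AC004835.1* with r = 0.39, and for *AC005332.8* it was *LINC02204* with r = 0.34.

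For *AL365226.2* it was *TRMT10B*, a tRNA methyltransferase gene, with r = 0.34, and for *AP000851.1* it was *CXCL8*, a neutrophil-attracting chemokine, with r = 0.29. For *AC005291.1* it was *GOLGA8M* with r = 0.20, for *AL136962.1* it was *SERPINB8* with r = 0.18, and for *AC022784.1* it was *PSMD8*, a proteasome subunit gene, with r = 0.16. With counts on a log scale, 5 of the 10 genes had another most correlated gene, which was *AKR1B15* for *AC092490.1* and *AL365226.2*, and *AC005332.3*, within 1 Mb, for *AC005332.8*. In sparse counts, weak values such as these are no finding. Over 57 of the 58 genes, the highest r had a median of 0.21. The partner met the thresholds of the rule for 23 of the 57, against 4.81% of the genes searched, which were not matched by abundance.

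The most correlated gene lay within 1 Mb for 2 of the 57 genes (3.51%), and for 5 with counts on a log scale, against 0.122% of the pairs of genes searched. *AP003555.2* paired with *ANO1*, a chloride channel gene that it overlaps on the opposite strand, with r = 0.17. *AL031777.3* paired with *HIST1H2AC*, 56479 bases away in the histone cluster on chromosome 6, with r = 0.30. *AL031777.3* overlaps *HIST1H3D* on the same strand, and a run of 270 of its last 300 bases is identical to it, so that its 30 and 226 UMIs in mock- and DAC-treated cells may include reads of the histone gene.

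The 56 placed genes lay on 20 chromosomes, with 7 on chromosome 11 and 5 on chromosome 17. In GENCODE release 44, 53 were long non-coding RNAs and 3 protein-coding, and 28 overlapped a gene on the opposite strand, 15 of them in exons. Exons of another gene on the same strand overlapped 9 of them. For 7, the start of a gene on the opposite strand lay within 1 kb of their own. Of these, *AC137630.3* overlaps exons of *IMPDH2* and *AC012645.1* overlaps exons of *YPEL3*, so that not all 7 run apart from the other gene. Near-identical 3′ ends, at 95% identity or more over at least 200 bases, were found for 6 genes, which were the already named *AP001189.5*, *AC098850.3*, and *AL031777.3*, and *AC006213.2* with *ZNF404*, *AL033504.1* with *SAMD5*, and *AL049629.2* with *CD59* and *C11orf91*. Counts of these 6 are uncertain.

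Another gene that met the same thresholds lay within 100 kb of 10 of the 56 genes (17.9%), and of 589 of the 5342 other clone-named genes with a UMI (11.0%). Within 10 kb the shares were 7.14 and 3.52%, and within 1 Mb 46.4 and 47.2%. The 4 genes behind the 7.14% include *AC022784.1* and *AC021242.2*, which count as neighbors of each other. None of the other clone-named genes met the thresholds, so they hold no such mutual pair. Near the 10 most abundant genes there were 2 neighbors within 100 kb that met the thresholds. *AC021242.2*, itself one of the 58 with 0 and 140 UMIs, overlaps *AC022784.1* on the opposite strand, and *RIMKLB*, a ligase gene 5158 bases from *AC092490.1*, had 6 and 102 UMIs. Of the 136 neighbors within 100 kb that were not among the 58 and had 100 UMIs or more over both libraries, 97 (71.3%) were higher in DAC-treated cells, against 63.1% of 13547 genes. A CPM ratio of 5 or more was found for 15 of them (11.0%), against 5.75% of the 13547 genes. The 15 include *HIST1H1D*, *HIST1H2AE*, *HIST1H2BG*, *HIST1H3G*, and *HIST1H4H*, all near *AL031777.3*. They also include *TM4SF18*, *EGFLAM*, and *CCDC144A*, each of which overlaps one of the 58 genes. Across cells, r of one of the 58 genes with a neighbor within 100 kb was above 0 for 113 of 145 pairs, with a median of 0.04, against a median of 0.00125 with all genes searched. The share above 0 with all genes was not obtained. The pairs count the overlapping *AC022784.1* and *AC021242.2* from both sides and include several histone genes near *AL031777.3*. *AC005332.8* and *AC005332.3*, 719 bases apart on the same strand, were found together in 32 cells against 10.2 expected, with r = 0.31. *AC096711.1* and *AC096711.3*, which overlap on the same strand, were found together in 23 cells against 6.59 expected, with r = 0.18. For genes this close, reads of one transcript could be counted for the other.

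The level of the 58 genes in a cell was also set beside other gene groups. Per 10000 UMIs, the median of the 1120 DAC-treated cells was 1.82 UMIs of the 58 genes (quartiles 1.16 and 2.81), and the highest cell had 73.9. The median over 1298 mock-treated cells under the same limits was 0, and the highest had 1.03. Across the DAC-treated cells, r with the summed level of the 614 other genes that met the thresholds was 0.62, and Spearman's rho was 0.51. With 34 cancer-testis genes, which are silent outside germ cells and are silenced by methylation, r was 0.29 and rho was 0.36. The median level of cancer-testis genes was 4.64 UMIs per 10000 in the group of cells with the lowest level of the 58 genes, of 3 groups of nearly equal size, 5.97 in the next, and 12.1 in the one with the highest level.

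With 36 interferon-stimulated genes, r was -0.01 and rho was 0.04. With 24 S-phase and 30 G2/M genes, r was -0.11 and -0.09. The median of the G2/M genes was 42.2, 39.8, and 25.9 UMIs per 10000 in the same groups, and that of the S-phase genes was 21.0, 20.9, and 15.0. Cells with the highest levels of the clone-named genes thus had more cancer-testis and fewer G2/M transcripts, and their interferon-stimulated transcripts were at 29.3, 32.2, and 33.4 UMIs per 10000. The medians of total UMIs were 44402, 47655, and 48811 in the groups, and those of mitochondrial UMIs were 1734, 1729, and 1929 per 10000. Their part in these relations was not tested.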

How the data were processed

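Single-cell RNA-seq of 1 mock-treated and 1 DAC-treated HCT116 library was used. The authors mapped reads to hg38 with Cell Ranger, as their processing notes state, and deposited the counts as whole UMIs per cell, not normalized. The annotation release, the use of strand, and any cell filter are not given in the sources used here.

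All cells were used, and doublets were not called, since doublets of 1 cell line carry no marker. UMIs were summed per library and scaled to CPM with Python 3.11.15, numpy 2.4.6, scipy 1.17.1, and pandas 2.3.3. Ratios have exact conditional binomial intervals, sums have Poisson intervals, and shares have Clopper-Pearson intervals, all at 95% and for counting error only. A count of 0 was set to 3 for ratios. For 0 of 1783 cells the interval reached 0.207%. Since cells are not replicates, no test was made. Functions were checked on simulated counts.

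Co-detection and correlations used 1120 DAC-treated cells with 10000 UMIs or more and 50% mitochondrial UMIs or less. Start windows and 3′ ends came from GENCODE release 44, and 3′ ends were compared with blastn. RefSeq promoters matched 10 of the 58 genes and were not used. The reference was in capitals only, so that the share of masked repeats could not be computed. Results that rest on some start sequences are not reported here.

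The genes, lists, and rules were chosen with earlier results of these data known. Named genes were the 10 with the most UMIs, the 5 highest and 5 lowest in UMIs per positive cell and in cells without a UMI relative to an even share, 3 on each side of 2 thresholds, the 10 most co-detected pairs, the most correlated genes of the 10 most abundant, and their neighbors within 100 kb that met the thresholds. *AC004835.1*, *AC126175.1*, *AL356747.1*, and genes named for their start windows, overlaps, positions, or limits of counting were added after their values were seen.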

Additional observations from a re-analysis of the deposited data

How the results depend on the processing

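No paired analysis was possible because each condition had 1 library, and no replicate could be left out. The number of genes under the rule was 121 with 50 UMIs or more, 20 with 200 UMIs or more, 99 with a ratio of 2 or more, and 23 without cells with more than 20% mitochondrial UMIs, all 23 among the 58 and counted over 976 in place of 1751 DAC-treated cells. It was between 47 and 61 under the other limits, names, and cell filters. The summed log2 CPM ratio of 4.78 was 4.61 with median-of-ratios scaling, which lowers every ratio by 0.17, and 4.98 as the ratio of mean CPM over cells. The median log2 ratio over the genes, 5.18, was 3.67 with cells thinned to 10000 UMIs, where the 3 counts set for a 0 are a larger share of fewer UMIs. For 27 named genes, 15 log2 ratios moved beyond their counting interval with thinned cells, and 4 of 135 under the other 5 settings.

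The median share of DAC-treated cells was 1.43% with 2 UMIs or more, 0.400% with 3 UMIs or more, 0.324% with cells thinned to 1000 UMIs, 2.59% at 10000 UMIs, and 10.2% without the shallow or mitochondrial cells. The median number of the genes per cell was 0 and 2 at 1000 and 10000 UMIs, and the UMIs per positive cell were 1 and 1.08. Depth thus limits shares and counts per cell. The median co-detection ratio, 1.12, was between 1.04, with cells thinned to 10000 UMIs and 45 in place of 1560 pairs left, and 1.19, with 2 UMIs or more and 93 pairs left, under 5 alternatives. The most correlated gene lay within 1 Mb for 5 genes on a log scale in place of 2, and a neighbor met the thresholds within 10 kb for 4 genes and within 1 Mb for 26. The limits on depth, mitochondrial share, and the deepest cells in the rule, and the settings of the next sentence, were chosen after seeing the data. The correlation with the other genes that met the thresholds, 0.62, was 0.52 in all DAC-treated cells and 0.54 without the 10 highest cells.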
